A study of Sus scrofa with 6 samples.

Results

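The BCL2 family was examined in ventricular tissue of male Tibetan minipigs through 10 genes given by name: the anti-apoptotic BCL2, BCL2L1, BCL2L2 and MCL1, the effectors BAX and BAK1, and the BH3-only BID, BAD, BBC3 and BCL2L11. Of these, 4 were found among the 13288 genes of the table by their gene name, and 2 more were found through their gene identifier. One group of 3 minipigs underwent sham surgery, a thoracotomy without constriction. In the other group of 3 the descending aorta was tied to a narrower bore (descending aortic constriction, DAC), and hearts were collected 12 weeks after surgery in both groups. RNA was sequenced once per minipig, and the labels do not say which ventricle or wall was taken. The samples are called sham replicates 1 to 3 and DAC replicates 4 to 6. Values are FPKM, fragment numbers corrected for transcript length and for how many fragments a sample had mapped, so levels of different genes can be compared per length.

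Proteins of the BCL2 family decide whether the outer membrane of the mitochondrion stays closed. BAX and BAK1 can assemble into pores that let cytochrome c out, which starts the caspase cascade. The anti-apoptotic proteins bind and hold back these effectors, and the BH3-only proteins sense stress and either neutralise the anti-apoptotic proteins or activate the effectors. In the heart, whose muscle cells are dense with mitochondria and are hardly replaced, this balance is known for its part in cell loss after ischaemia and under overload, and BCL2L1 (BCL-xL) and MCL1 are known as survival factors of cardiomyocytes.

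No member passed the test between DAC and sham myocardium. Among the 5 members with enough signal to be tested, none passed an unadjusted P of 0.05, where 8.51% of all genes tested did. In none were the DAC samples all on one side of the sham samples, where this held for 14.9% of all genes tested. With shares this low, 0 of 5 does not set the members apart. BCL2L1, BAK1, BAD and BBC3 each had a lower mean after DAC, at 0.872, 0.820, 0.759 and 0.689 of the sham mean, with values that overlapped between the groups. MCL1 was listed at 0 in 3 of 6 samples and reached its highest level in 1 DAC minipig. BCL2, BCL2L2, BAX and BCL2L11 had no row under their name.

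The rows of the members were sorted out first, since they set what can be read. BCL2L1 (ENSSSCG00000035357), MCL1 (ENSSSCG00000039314), BAD (ENSSSCG00000013033) and BID (ENSSSCG00000000769) carry their names in the table. BAK1 (ENSSSCG00000001516) and BBC3 (ENSSSCG00000003112) have rows without a name, and the identifier gave their symbol. The deposited positions, on Sscrofa11.1 (susScr11), are chr17:35366141-35415359 for BCL2L1, chr2:7830920-7842863 for BAD, chr5:69849002-69875853 for BID, chr7:29807021-29815318 for BAK1 and chr6:53037103-53046887 for BBC3. These are whole gene loci, exons and introns together.

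The deposited locus of BID shared 6296 bases with that of BCL2L13 on the opposite strand, and that of BAD shared 50 bases with GPR137. The library kit is not stated to have kept the strand, so reads from a stretch that genes on opposite strands share cannot be told apart. No other listed locus overlapped BCL2L1, BAK1 or BBC3.

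For BCL2, BAX and MCL1, a row of a neighbouring gene covered the position. RefSeq places BCL2 at chr1:158337403-158518214, and all of it lay inside the deposited locus of KDSR, an enzyme of sphingolipid synthesis, which ran over 230336 bases while KDSR itself has 41355 bases in RefSeq. BAX is at chr6:54222341-54228150 in RefSeq, and 99.9% of it lay inside the deposited locus of DHDH, a dihydrodiol dehydrogenase, which was 40885 bases long against 6558 in RefSeq. The deposited locus of FTL, chr6:54227164-54232752, also reached over the last part of BAX. FTL ranged from 127 FPKM in DAC replicate 6 to 170 FPKM in sham replicate 1, and its values are not values of BAX either. The rows of ENSA and MCL1 had the identical locus, chr4:98527907-98567006 on the same strand, although RefSeq gives MCL1 4923 bases at one end of it and ENSA 7746 at the other. Of 10655 coding genes with a RefSeq symbol, 776 (7.28%) had a deposited locus that held every base of another RefSeq coding gene. KDSR with BCL2 met that strict criterion, while the DHDH and ENSA loci ended a few bases short of it, with 99.9% of BAX and 99.8% of MCL1 inside.

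**Figure D1:**
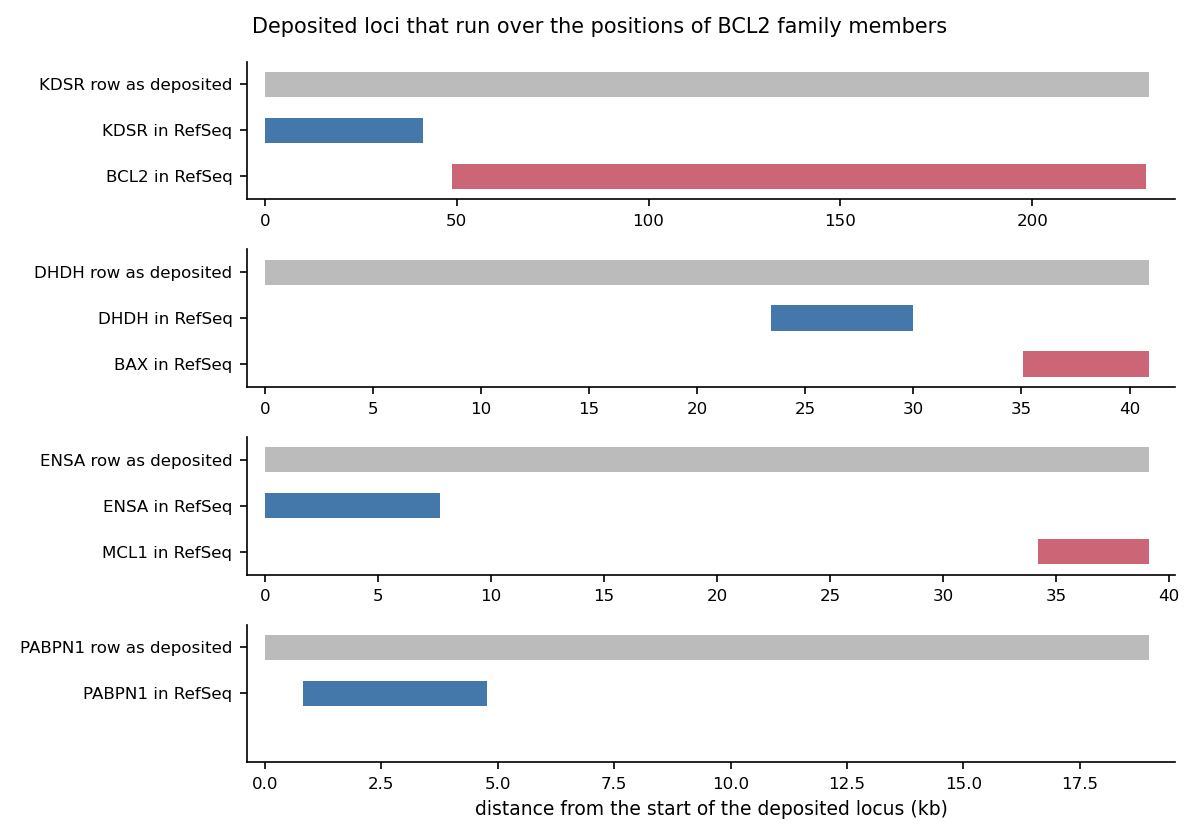
Extents of 4 deposited loci (grey) and of the genes that RefSeq places in them (blue for the gene that names the row, red for the BCL2 family member), in kb from the start of each deposited locus. The KDSR, DHDH and ENSA loci reach over BCL2, BAX and MCL1, and the PABPN1 locus runs past PABPN1 over 18978 bases in all.

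Which reads entered the KDSR and DHDH rows is not given in the sources used here, so their values are not values of BCL2 or BAX. KDSR was at 5.30, 5.82 and 5.38 FPKM in sham replicates 1 to 3 and at 5.83, 5.50 and 5.72 FPKM in DAC replicates 4 to 6. DHDH was at 20.2, 19.0 and 21.3 FPKM in the sham samples and at 18.5, 19.8 and 21.5 FPKM in the DAC samples. Both rows were nearly level over the 6 minipigs, the groups overlapped, and the adjusted P from limma was 0.920 for KDSR and 0.980 for DHDH. The difference of DHDH in mean log2(FPKM + 1) was -0.013, and it turned positive under each rescaling of the samples.

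BCL2L2 (BCL-w), an anti-apoptotic protein, and BCL2L11 (BIM), a BH3-only activator, could be followed only through rows of uncertain identity. Identifier ENSSSCG00000002023 is named BCL2L2 in the identifier table but PABPN1, a polyadenylate-binding protein, in the deposited table, at chr7:75751760-75770737. This row was at 13.2, 13.0 and 17.8 FPKM in the sham samples and at 14.4, 12.9 and 12.4 FPKM in the DAC samples. A nameless row, ENSSSCG00000022322, covered 97.2% of the RefSeq position of BCL2L11, chr3:45156791-45202996. It was at 1.97, 2.40 and 1.73 FPKM in the sham samples and at 2.69, 1.51 and 1.34 FPKM in the DAC samples. For both rows the groups overlapped, with an adjusted P from limma of 0.815 and 0.885, and neither row is counted as a member below.

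The comparison between DAC and sham was made for each gene that reached 1 FPKM in 3 or more samples, on log2(FPKM + 1), with limma's moderated test. A gene with an unadjusted P under 0.05 is called a differentially expressed gene (DEG), whatever its fold change, which is how the study defined the term. Of 11029 genes tested, 8.51% were DEGs, 3.25% higher and 5.27% lower in DAC, and 14.9% had groups that did not overlap. With Benjamini-Hochberg adjustment over all genes tested, 0 genes had an adjusted P under 0.05 in limma, and 939 had an unadjusted P under 0.05. The summed FPKM of a sample was between 281377 and 308771. Mitochondrially encoded genes held 24.0% to 25.3% of it in the sham samples, 27.2% and 27.1% in DAC replicates 4 and 6, and 32.8% in DAC replicate 5. With these genes left out and the rest rescaled, 500 genes were higher and 407 lower in DAC, against 358 and 581 without that step. Read depth is unknown, as FPKM does not hold it.

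Of the 10 members, 6 had a row, 5 were tested and 0 were DEGs, where the background was 8.51%. Groups that did not overlap were found in 0 of the 5, where the background was 14.9%. A lower mean in DAC was seen in 4 of the 5, while 53.4% of all genes tested had a lower mean. The median log2 difference of the 5 members was -0.24, beside -0.016 over all genes tested. BBC3 and MCL1 passed the filter in exactly 3 samples each, and BID did not pass it.

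Of the anti-apoptotic members, BCL2L1 and MCL1 had a row, and BCL2L1 had the higher listed value in each sample, if only slightly in DAC replicate 6. BCL2L1 was at 43.2, 43.7 and 34.3 FPKM in sham replicates 1 to 3 and at 31.5, 41.6 and 32.6 FPKM in DAC replicates 4 to 6. Sham replicates 1 and 2 and DAC replicate 5 were high, and the other samples, sham replicate 3 among them, were about 10 FPKM lower. The group values were 40.4 ± 5.30 FPKM in sham and 35.2 ± 5.55 FPKM in DAC (SD, n = 3 each), and the mean of BCL2L1 was above that of 92.9% of all listed genes. The log2 difference was -0.19 (SE 0.15, adjusted P = 0.729 from limma), with a 95% interval of the fold of FPKM + 1 from 0.681 to 1.12. Without DAC replicate 5 the log2 difference was -0.32 and the groups, then of 3 and 2 samples, separated, still with an unadjusted limma P of 0.0671, and without DAC replicate 4 it was -0.12.

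MCL1, a short-lived protein that binds BAK1 and several BH3-only proteins, was listed at 0 in sham replicates 1 and 2 and in DAC replicate 4. It was at 3.199 FPKM in sham replicate 3, at 6.26 FPKM in DAC replicate 5 and at 31.1 FPKM in DAC replicate 6. The highest value thus came from a single DAC minipig, while another DAC minipig had the same listed 0 as most of the sham group. ENSA, an inhibitor of a protein phosphatase whose row has the same locus, was at 17.8, 35.4 and 14.7 FPKM in the sham samples and at 22.1, 22.5 and 13.4 FPKM in the DAC samples. ENSA was lowest in DAC replicate 6, where MCL1 was highest, and MCL1 held 69.9% of the sum of both rows there, 21.7% in DAC replicate 5 and 17.8% in sham replicate 3.

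**Figure D2:**
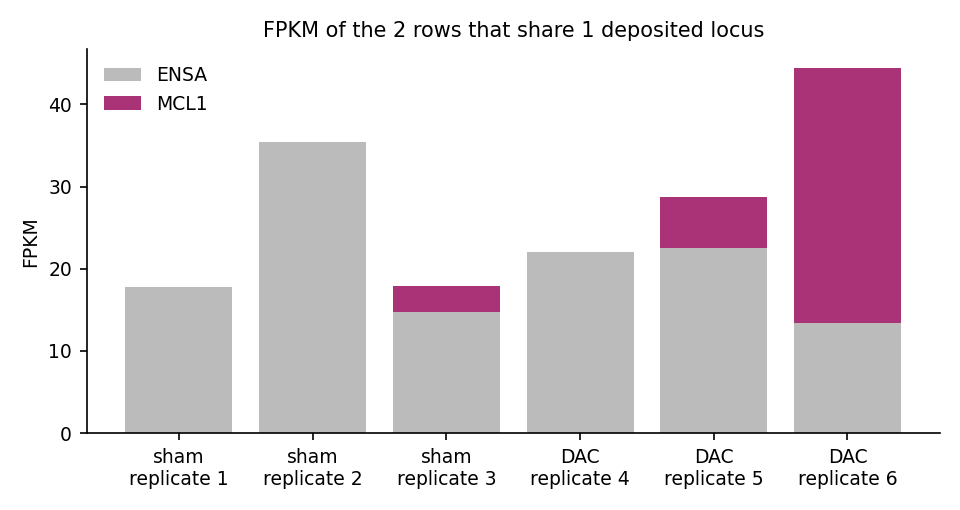
FPKM of ENSA (grey) and MCL1 (purple), stacked, in each of the 6 minipigs. MCL1 is listed at 0 in 3 samples and makes up most of the bar only in DAC replicate 6, where the sum of both is 44.5 FPKM.

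How reads were divided between the rows of MCL1 and ENSA is not given in the sources used here, and a listed 0 need not be an absence of MCL1 RNA. Only 5 of the 13288 genes were listed at 0 in one sample and at 10 FPKM or more in another. MCL1 was one of the 5, and the others differed in pattern. LARP6, an RNA-binding protein of collagen transcripts, was listed at 0 in DAC replicate 5 and at 9.93 to 10.7 FPKM in the other samples. SLC25A34 was at 34.7 and 39.6 FPKM in sham replicates 1 and 3 and at 0 elsewhere. ENSSSCG00000015337 was at 196 FPKM in sham replicate 1 and at 0 elsewhere. ENSSSCG00000031037 reached 10.7 FPKM in DAC replicate 5 and was listed at 0 in sham replicate 1 and DAC replicates 4 and 6. The log2 difference of MCL1 was 1.93 (SE 1.21, adjusted P = 0.673 from limma), with an interval from -0.91 to 4.77, and it was 3.08 with a pseudocount of 0.1. Leaving out DAC replicate 6 gave 0.74, and leaving out DAC replicate 4 gave 3.24 with an unadjusted limma P of 0.00990. Without DAC replicate 4, the DAC sample with a listed 0, 829 of all 11029 genes tested were DEGs. That sample made the groups of MCL1 overlap, so the P without it is no support for a difference.

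BAK1, the effector that resides in the outer membrane, was at 9.31, 8.71 and 6.82 FPKM in the sham samples and at 6.30, 7.38 and 6.70 FPKM in the DAC samples. The highest sham samples stood apart, while sham replicate 3 lay within the DAC range. BAK1 had 8.28 ± 1.30 FPKM in sham and 6.79 ± 0.545 FPKM in DAC (SD, n = 3 each). Its log2 difference was -0.24 (SE 0.14, adjusted P = 0.645 from limma), with a 95% interval of the fold of FPKM + 1 from 0.677 to 1.05. Without sham replicate 3, the sham sample within the DAC range, the log2 difference was -0.36 with an unadjusted limma P of 0.0275. In that setting 631 of all 11029 genes tested were DEGs. The sample left out was the one that made the groups of BAK1 overlap, so this P is no support for a difference.

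BAD was the most abundant of the 3 BH3-only members with a row. BAD links growth factor signalling to the family, as kinases such as AKT1 phosphorylate it and so keep it away from BCL2L1. It was at 12.6, 9.92 and 14.1 FPKM in the sham samples and at 10.4, 7.06 and 10.4 FPKM in the DAC samples. DAC replicate 5 was lowest, and sham replicate 2 lay just under the other DAC samples, which is the whole of the overlap. BAD had 12.2 ± 2.14 FPKM in sham and 9.27 ± 1.91 FPKM in DAC (SD, n = 3 each), a log2 difference of -0.37 (SE 0.19, adjusted P = 0.618 from limma). This was the largest negative difference of the 5 tested members on this scale, though with a pseudocount of 0.1 it was -0.40 for BAD and -0.55 for BBC3. The 95% interval of the fold of FPKM + 1 of BAD ran from 0.573 to 1.05. The log2 difference of BAD was -0.50 without sham replicate 2, with an unadjusted limma P of 0.0378. In that setting 1029 of all 11029 genes tested were DEGs. As sham replicate 2 was the source of the overlap, this P is no support for a difference. Without DAC replicate 5 the log2 difference of BAD was -0.20.

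BBC3 (PUMA), a BH3-only protein induced by FOXO factors and other stress signals, was scarce. It was at 1.05, 0.896 and 1.48 FPKM in the sham samples and at 1.11, 0.414 and 0.833 FPKM in the DAC samples. Sham replicate 3 was highest and DAC replicate 5 lowest, with the other 4 samples mixed between them. On the log2(FPKM + 1) scale, which understates differences at such levels, the difference was -0.27 (SE 0.18, adjusted P = 0.701 from limma), and leaving out DAC replicate 5 gave -0.11, sham replicate 3 -0.16. With a pseudocount of 0.1 the log2 difference of BBC3 was -0.55.

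BID, which carries the death receptor signal to mitochondria once caspase-8 has cut it, had the lowest level of the 6 rows. It was at 0.832, 0.468 and 0.808 FPKM in the sham samples and at 0.560, 0.662 and 0.788 FPKM in the DAC samples. All DAC values of BID lay inside the sham range, and the gene was below the filter, so it was not tested with the others. In the fit without a filter its log2 difference was -0.023 with an unadjusted limma P of 0.869.

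**Figure D3:**
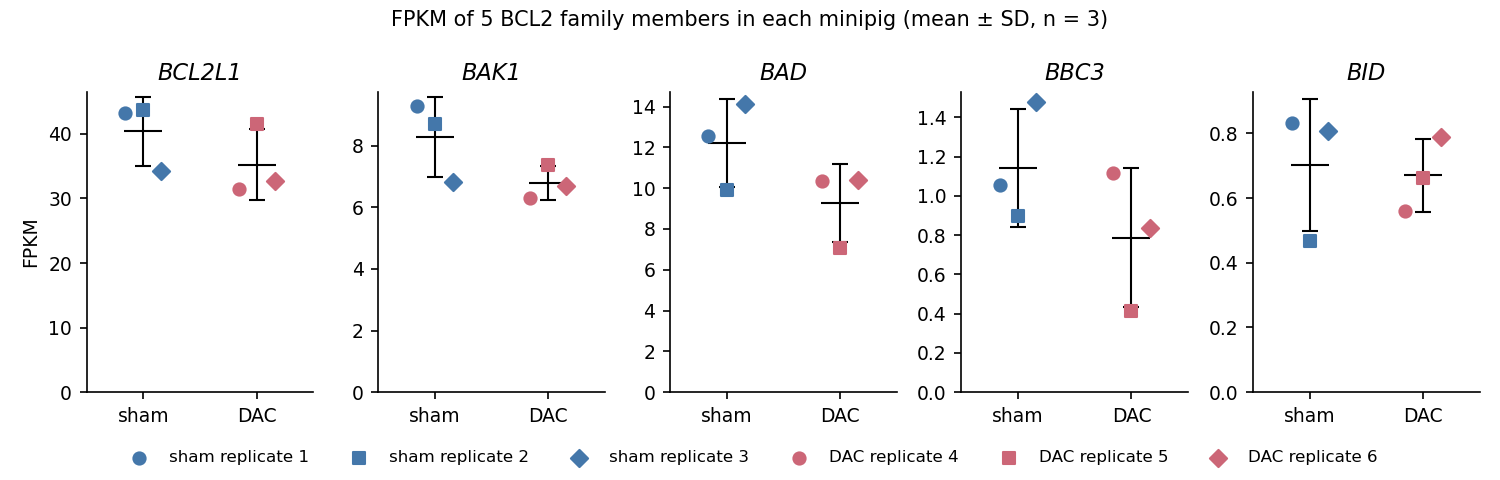
FPKM of BCL2L1, BAK1, BAD, BBC3 and BID in each minipig (symbols; blue sham, red DAC), with the mean and SD of each group of 3 as bars, each gene on its own axis from 0. The groups overlap in every panel, and DAC replicate 5 (square) is the highest DAC sample for BCL2L1 and BAK1 and the lowest for BAD and BBC3.

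Ordered by their median FPKM over the 6 samples, the members ran BCL2L1 (38.0), BAD (10.4), BAK1 (7.10), MCL1 (1.599), BBC3 (0.9751) and BID (0.725). BCL2L1 was above BAD in 6 of 6 samples and their ranges did not meet. Each later pair of neighbours overlapped in range, with BAD above BAK1 in 5 of 6 samples, BAK1 above MCL1 in 5 of 6, MCL1 above BBC3 in 3 of 6 and BBC3 above BID in 5 of 6. The place of MCL1 is that of its listed values only. How reads were divided between its row and that of ENSA is not given, so its RNA level cannot be ranked from them. The RNA level of the anti-apoptotic BCL2L1 was at least 2.42 times that of BAD, and at least 4.64 times that of BAK1, in every sample.

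The minipigs ranked almost alike for BCL2L1 and BAK1, a likeness noticed after the values were seen and not compared with other gene pairs. For both genes the order from the third sample down was DAC replicate 5, sham replicate 3, DAC replicate 6 and DAC replicate 4, with sham replicates 1 and 2 at the top in opposite order. The ratio of BCL2L1 to BAK1 was accordingly narrow, at 4.64, 5.01 and 5.03 in the sham samples and at 4.996, 5.64 and 4.87 in the DAC samples. It was chosen after the values were seen, in place of the ratio of BAX to BCL2, which have no row. The groups overlapped, at 4.90 ± 0.218 in sham and 5.17 ± 0.413 in DAC (SD, n = 3 each).

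BAD and BBC3 departed from that order, and shared with each other only their highest and lowest sample. Both were highest in sham replicate 3, where BCL2L1 and BAK1 were the lowest of the sham group, and both were lowest in DAC replicate 5, where BCL2L1 and BAK1 were the highest of the DAC group. The ratio of BCL2L1 to BAD therefore spread more widely, from 2.42 in sham replicate 3 to 5.89 in DAC replicate 5, with 3.44 and 4.40 in the other sham samples and 3.04 and 3.14 in the other DAC samples. DAC replicate 5 was also the sample with the highest share of mitochondrially encoded RNA. Leaving out these genes rescales a whole sample, which leaves a ratio within that sample as it is. Any other link of that share to these values was not tested.

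Summed by role, the BH3-only members BID, BAD and BBC3 had 14.5, 11.3 and 16.4 FPKM in the sham samples and 12.04, 8.14 and 12.01 FPKM in the DAC samples. The difference of the means was -3.33 FPKM, most of it from BAD, and the groups overlapped. It was -2.03 FPKM without DAC replicate 5 and -2.14 FPKM without sham replicate 3. BCL2L1 and MCL1 together had 43.2, 43.7 and 37.5 FPKM in the sham samples and 31.5, 47.9 and 63.7 FPKM in the DAC samples. The difference of 6.22 FPKM rested on MCL1 in DAC replicate 6, as it was -1.80 FPKM without that sample and 14.3 FPKM without DAC replicate 4. BAK1 was the only effector with a row.

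Genes that act with the family were read from 6 lists: other BCL2 relatives, partners and cargo at the mitochondrial membranes, caspases and apoptosome genes, inhibitors of apoptosis, the death receptor pathway, and regulators of the family. Of their 82 genes, 70 had a row, 68 were tested, 1 was a DEG higher in DAC (1.47%, where the background was 3.25%) and 2 were DEGs lower in DAC (2.94%, where the background was 5.27%). Their median log2 difference was -0.0078, beside -0.016 over all genes tested.

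Of the 9 other BCL2 relatives tested, 1 was a DEG lower and 0 were DEGs higher in DAC, and their median log2 difference was 0.034. The DEG was BCL2L12, a relative without a firmly settled role in cell death, at 2.85, 2.33 and 3.07 FPKM in sham and at 2.45, 1.64 and 1.63 FPKM in DAC. DAC replicate 4 lay above sham replicate 2, so the groups met, and the log2 difference was -0.38 (SE 0.15, adjusted P = 0.584 from limma). The call was lost in 6 of 12 alternatives, and 47.3% of the deposited locus of BCL2L12 was shared with that of PRMT1 on the same strand.

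BCL2L13, a relative in the outer membrane that takes part in mitophagy, is named here after its values were seen, because its groups did not overlap. That held for 1 of the 9 other BCL2 relatives tested, where the background was 14.9%, so it does not set BCL2L13 apart. BCL2L13 was at 13.7, 14.8 and 14.5 FPKM in sham and at 11.5, 13.0 and 12.6 FPKM in DAC. Its log2 difference was -0.20 (SE 0.099, adjusted P = 0.615 from limma), and it was not a DEG. BNIP3, a mitophagy receptor induced by hypoxia and also chosen after its values were seen, was at 61.4, 30.5 and 57.9 FPKM in sham and at 25.4, 42.9 and 39.9 FPKM in DAC. Sham replicate 2 lay among the DAC samples, and the adjusted limma P was 0.709. Without sham replicate 2 the log2 difference of BNIP3 went from -0.43 to -0.75, with an unadjusted limma P of 0.0184. In that setting 1029 of all 11029 genes tested were DEGs. The sample that made the groups of BNIP3 overlap was gone, so this P is no support for a difference. Leaving out sham replicate 1 gave -0.25 and leaving out DAC replicate 4 gave -0.20.

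Partners and cargo at the mitochondrial membranes were tested in full, 10 of 10, with 0 DEGs. A lower mean in DAC was found for 9 of the 10, where 53.4% of all genes tested had one, and the median log2 difference was -0.15. The groups did not overlap in 3 of the 10, where the background was 14.9%. AIFM1, a flavoprotein of the intermembrane space that can move to the nucleus in cell death, had the smallest P. It was at 25.0, 27.7 and 28.4 FPKM in sham and at 22.4, 24.1 and 22.3 FPKM in DAC, and the log2 difference was -0.23 (SE 0.10, adjusted P = 0.593 from limma). CYCS, the cytochrome c gene, was far more abundant and nearly equal in the group means, at 122 ± 13.2 FPKM in sham and 122 ± 14.2 FPKM in DAC (SD, n = 3 each). CYCS was named after its values were seen, and the sign of its log2 difference, -0.0038, turned under each rescaling.

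Caspases and apoptosome genes were tested in 9 of 11 cases, with 1 DEG lower and 0 higher in DAC and a median log2 difference of 0.021. CASP10, an initiator caspase of the death receptors, was that DEG, at 2.87, 3.94 and 4.92 FPKM in sham and at 2.58, 2.21 and 3.04 FPKM in DAC. DAC replicate 6 lay above sham replicate 1, the log2 difference was -0.43 (SE 0.18, adjusted P = 0.585 from limma), and the call was lost in 6 of 12 alternatives, with -0.28 without sham replicate 3. APAF1, the scaffold of the apoptosome, had 1.54 ± 0.286 FPKM in sham and 1.68 ± 0.572 FPKM in DAC (SD, n = 3 each). APAF1, named after its values were seen, was thus far below CYCS per length, and its groups overlapped.

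Inhibitors of apoptosis had 0 DEGs among 5 tested genes and a median log2 difference of 0.015. XIAP, which blocks active caspases, had the smallest P of the list, at 10.4, 12.4 and 11.5 FPKM in sham and at 15.9, 11.6 and 12.5 FPKM in DAC (log2 difference 0.20, adjusted P = 0.709 from limma). DAC replicate 4 alone was above the sham range by more than 1 FPKM, and the log2 difference of XIAP was 0.074 without it. The death receptor pathway had 0 DEGs among 6 tested genes and a median log2 difference of -0.10. All 6 had a lower mean in DAC, where 53.4% of all genes tested had one. FADD, the adaptor that recruits caspase-8, had the smallest P there, at 5.44, 7.12 and 6.34 FPKM in sham and at 6.29, 3.93 and 5.50 FPKM in DAC (log2 difference -0.24, adjusted P = 0.710 from limma). The log2 difference of FADD became -0.078 when DAC replicate 5 was left out, -0.16 when sham replicate 2 was, and -0.36 when DAC replicate 4 was.

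Regulators of the family had 1 DEG higher and 0 lower in DAC among 29 tested genes, with a median log2 difference of 0.016. YWHAZ, an adaptor protein that can hold phosphorylated BAD in the cytosol, rose from 33.6, 42.2 and 38.0 FPKM in sham to 49.5, 44.2 and 53.7 FPKM in DAC. All DAC samples lay above all sham samples, and the log2 difference was 0.37 (SE 0.13, adjusted P = 0.548 from limma). The call of YWHAZ was lost without sham replicate 1, sham replicate 3, DAC replicate 4 or DAC replicate 6, with an unadjusted P from limma between 0.0503 and 0.0840.

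AKT1 and FOXO3 were named after their values were seen, for their known control of BAD, BBC3 and BCL2L11. AKT1 was at 47.2, 30.4 and 53.8 FPKM in sham and at 32.9, 34.6 and 34.05 FPKM in DAC, with sham replicate 2 under all DAC samples (log2 difference -0.32, adjusted P = 0.676 from limma). Without sham replicate 2, the sample that made the groups overlap, the log2 difference of AKT1 was -0.56 with an unadjusted limma P of 0.00324. In that setting 1029 of all 11029 genes tested were DEGs. Because the overlap was removed with that sample, this P is no support for a difference. Without sham replicate 3 the log2 difference of AKT1 was -0.16. FOXO3 had 32.1 ± 1.18 FPKM in sham and 30.9 ± 4.82 FPKM in DAC (SD, n = 3 each). The groups overlapped, and the adjusted P of FOXO3 from limma was 0.904.

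**Figure D4:**
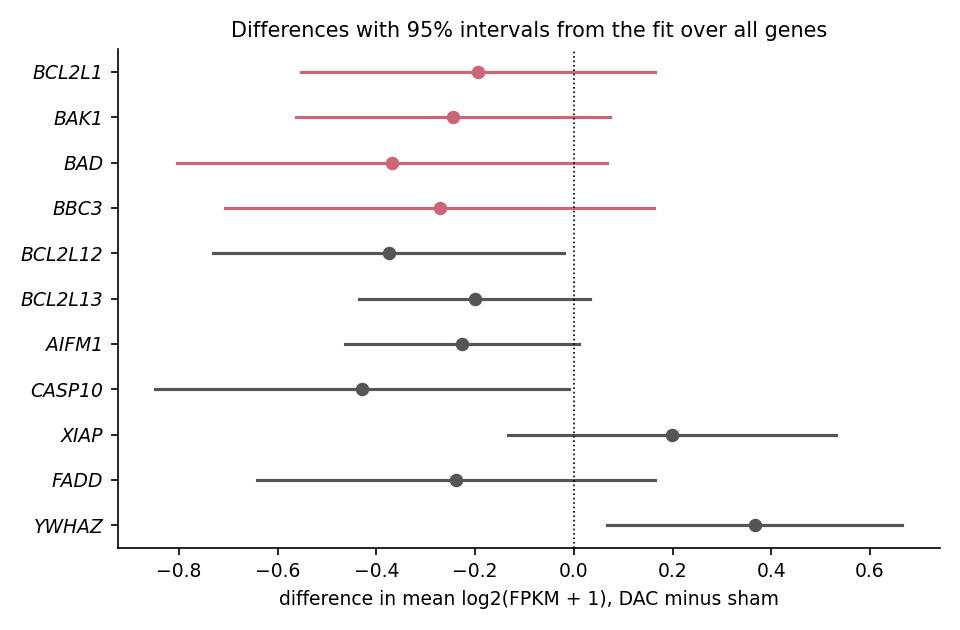
Difference in mean log2(FPKM + 1), DAC minus sham, for 4 BCL2 family members (red) and 7 genes of the related lists (grey), with 95% intervals from limma's fit. The intervals of all 4 members cross 0, and MCL1, which was also tested, is not drawn. BCL2L12, CASP10 and YWHAZ are drawn because they were DEGs, so their intervals had to miss 0. Their adjusted P from limma was 0.548 to 0.585.

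**Figure D5:**
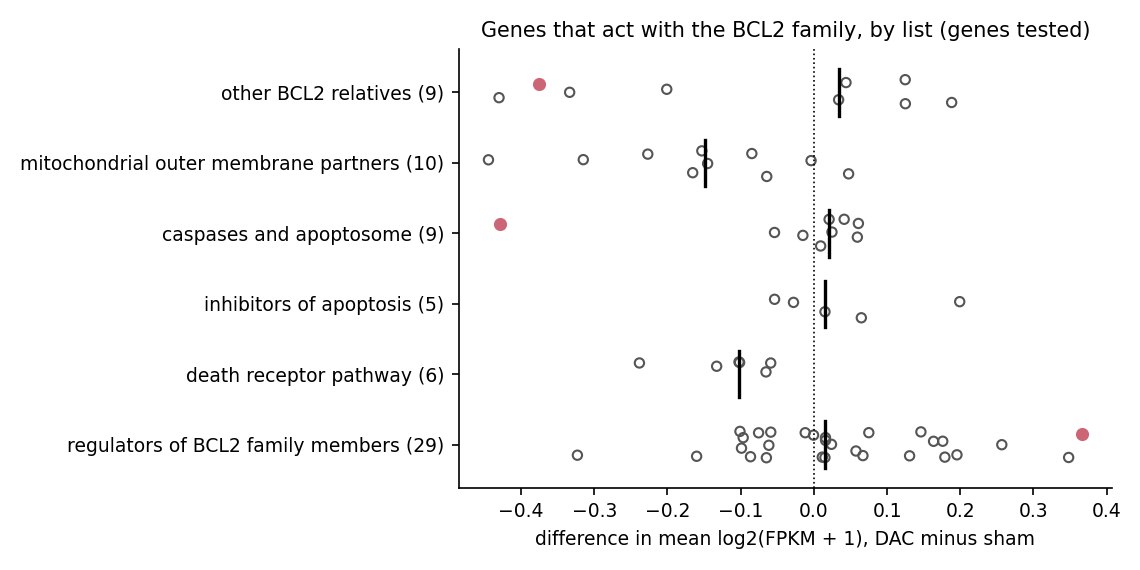
Difference in mean log2(FPKM + 1), DAC minus sham, of each tested gene in the 6 related lists, with the number tested in brackets. Filled red points are DEGs, open points are not, black bars are list medians, and points are shifted vertically at random for legibility. The 3 DEGs are BCL2L12, CASP10 and YWHAZ, and the open point left of BCL2L12 is BNIP3.

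Markers of the cell types of the heart were read beside these values, since in bulk tissue fewer cells of a type and less RNA per cell cannot be told apart. Cardiomyocyte markers were abundant in all samples, with a summed level of 11266 to 12630 FPKM in sham and 11044 to 14024 FPKM in DAC over 6 of 8 listed markers, and 1 of them was a DEG lower in DAC. The 6 fibroblast markers summed to 321 to 370 FPKM in sham and to 446 to 521 FPKM in DAC, without overlap. COL1A1, COL1A2 and LUM were DEGs higher in DAC, while DCN, PDGFRA and TCF21 were not DEGs, and 2 of the 6 markers had a lower mean in DAC. The means of these matrix genes rose from 94.0 to 165 FPKM for COL1A1, from 73.3 to 110.3 FPKM for COL1A2 and from 20.5 to 34.7 FPKM for LUM.

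Summed levels overlapped between the groups for the other cell types. They were 108 to 157 FPKM in sham and 106 to 150.2 FPKM in DAC for 6 endothelial markers, 133 to 161 and 159.5 to 180 FPKM for 6 smooth muscle and pericyte markers, and 39.2 to 41.6 and 32.6 to 45.0 FPKM for 5 of 7 leukocyte markers. They were 4.73 to 12.7 and 10.1 to 20.7 FPKM for 3 of 5 adipocyte markers, and 11.4 to 39.3 and 5.96 to 38.5 FPKM for 3 of 5 red blood cell markers. Among the 6 endothelial markers 1 was a DEG higher and 1 a DEG lower in DAC. Among the 6 smooth muscle and pericyte markers 1 was a DEG higher. All 6 had a higher mean in DAC, while 53.4% of all genes tested had a lower one. Of 4 leukocyte markers tested, 1 was a DEG lower. The background was 3.25% higher and 5.27% lower. ALAS2 of the red blood cell list was the only marker with a listed 0. The part of the fibroblast difference in the levels of the BCL2 family was not tested.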

How the data were processed

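The authors deposited 1 table of FPKM with a column for each minipig, made from paired-end reads of NEBNext Ultra libraries. HISAT2 and the build susScr11 are named in the submitters' processing notes, and the program that made the FPKM is not given in the sources used here. The highest sample of each listed gene has at least 0.500 FPKM. Rows without a gene name took the symbol of their identifier (519 of 2440). Positions of members come from RefSeq on Sscrofa11.1.

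Groups were compared with limma 3.58.1 in R 4.3.3 on log2(FPKM + 1), with a variance trend, for genes that reached 1 FPKM in 3 or more samples. P was adjusted over all 11029 genes. A DEG has an unadjusted P under 0.05. An exact two-sided permutation test of 3 against 3 cannot give a P under 0.10. The limma fit was also run on simulated data in which 200 genes were shifted by 1 log2 unit, and 194 of them were called. That shift is larger than the differences of BCL2L1, BAK1, BAD and BBC3. No other step was tried on simulated data. P-values rest on the spread between these minipigs, which limma moderates toward a trend over all genes. For BAD the unadjusted P was 0.0858 from limma and 0.163 from a t-test with the gene's own variance. Figures used matplotlib 3.10.9.

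The members and lists were chosen with earlier results of these data known. Besides the members, the genes named are the DEGs of each list, up to 5, or else the gene with the smallest P. Markers are named where a list's summed level did not overlap between groups. Others are marked as chosen after seeing values. Results were recomputed with a pseudocount of 0.1, without a filter, with a minimum of 5 FPKM, after quantile normalization, after scaling to a common median, without the mitochondrially encoded genes, with the variance of each gene on its own, and with each sample left out in turn.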

Additional observations from a re-analysis of the deposited data

How the results depend on the processing

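No member was a DEG under any of the 7 alternatives that kept all samples. With 1 sample left out, the number of members called went from 0 to 1, namely BAD without sham replicate 2, BAK1 without sham replicate 3 and MCL1 without DAC replicate 4. Each time the sample left out was the one that made the groups of that gene overlap, so these calls are no support for a difference. The number whose groups did not overlap was from 0 to 2 with 1 sample left out, against 2416 to 3181 of all 11029 genes. BCL2L1, BAK1, BAD and BBC3 kept a lower mean and MCL1 a higher mean in DAC in every alternative that tested them. BBC3 and MCL1 could not be tested at 5 FPKM. The 939 DEGs became 579 of 6271 genes at a minimum of 5 FPKM, where fewer genes were tested, and 600 to 1029 with 1 sample left out, fewest without sham replicate 1. An adjusted P under 0.05 in limma was found for 1 gene when sham replicate 3 was left out, for 1 gene when DAC replicate 6 was left out, and for 0 genes in the other alternatives.

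The sign of the difference turned for 7 genes, none of them a member, and the cause was not tested. DHDH went to 0.011 after median scaling, 0.036 after quantile normalization and 0.029 without mitochondrially encoded genes, and CYCS went to 0.021, 0.091 and 0.040. With 1 sample left out, the log2 difference ranged from -0.066 to 0.036 for DHDH, -0.096 to 0.067 for CYCS, -0.20 to 0.010 for PABPN1, -0.40 to 0.21 for ENSA, -0.32 to 0.012 for ENSSSCG00000022322, -0.079 to 0.24 for APAF1 and -0.18 to 0.034 for FOXO3. The ratio of BAX to BCL2 was not run, as neither has a row. Precision rests on 3 minipigs a group, and depth is unknown.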
